A study of Mus musculus with 4 samples.

Results

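Immediate early and heat shock genes were followed across the cell classes of mouse liver. They comprised 40 genes, chosen by gene symbol, out of 32285 in the count matrices, and all 40 were found. They fell into 10 AP-1 and EGR genes, 3 NR4A genes, 8 heat shock genes, 7 IER and DUSP genes, 3 KLF and Myc genes, 5 genes of mRNA decay and the BTG family, and 4 others (Ppp1r15a, Rgs1, Rgs2 and Cd69). Droplet single-cell RNA libraries (10x) came from livers of male mice aged 24 weeks after 12 weeks on a NASH diet, which brings on fatty liver with inflammation. All carried the floxed Cyr61 strain (Cyr61fl/fl), with 2 libraries of genotype Control and 2 of genotype Cyr61 KO. The labels name no Cre driver, no deleted cell type and no number of animals per library, so p-values measure the spread between these libraries, which may be technical. Livers had been kept in serum with DMSO, thawed, digested with enzymes and mechanical force, and passed over a dead cell removal column. Every level below was measured after those steps, no undigested tissue was analysed here, and the effect of storage, thawing and digestion on the levels was not tested.

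Immediate early genes are transcribed within minutes of a stimulus without new protein synthesis, through factors already present in the cell such as CREB and SRF. FOS and JUN proteins pair as the AP-1 factor, EGR proteins are zinc finger factors, and the NR4A proteins are orphan nuclear receptors induced by antigen receptor and other signals. Heat shock genes are driven by HSF1 and encode chaperones of the HSP70, HSP90 and HSP40 families with their cochaperones. Warm enzymatic digestion of tissue is known to induce genes of both kinds.

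Depth ranged from 8290677 (Control 1) to 20537236 (Control 2) UMIs per library, and the median UMIs per kept cell came to 1203 (Control 1), 2202 (Control 2), 1849 (KO 1) and 2814 (KO 2). The median mitochondrial share was 2.29% and 3.58% in Control and 3.80% and 4.56% in KO. Pairs of libraries shared 6 to 22 cell barcodes. Gates of 10 markers per class gave at least 51 cells in every library for T cells, B cells, NK cells and innate lymphoid cells (NK and ILC), monocytes and macrophages, and neutrophils, which were tested; the dendritic gates held as few as 10 and 12 cells in a library and were not. In each tested gate 0 markers of another class were among the 10 leading genes. The gating rule itself lowers such markers, so this is no independent check of the gates. The stromal gate held 273 and 58 cells in Control and 0 in both KO libraries, and the hepatocyte gate held 0 cells. Ccn1, the official symbol of Cyr61 and itself an immediate early gene, had 170 and 142 UMIs in Control and 0 and 12 in KO over all kept cells. Of these, 154 and 141 lay in the Control stromal gate and 11 in 3 endothelial cells of KO 2. In the 5 tested gates Ccn1 had 1 UMI in all libraries together, so these cells do not check the genotype labels.

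Upstream sequence is shown for 3 genes that stand for the AP-1, NR4A and HSP70 responses, a near-identical HSP70 copy, and Cacybp, which changed in the most gates. RefSeq promoter entries (GRCm38.p6) matched 31 of the 40 genes, and each sequence is the 250 bases before the annotated start. Capitals mark TGACG, the core of the cAMP response element, on either strand in Fos (chr12:85473640-85473889, plus strand) and Nr4a1 (chr15:101266596-101266845, plus strand). In the others they mark GAANNTTC or TTCNNGAA, a pair of heat shock element units read on either strand. Hspa1a lies at chr17:34972157-34972406, Hspa1b at chr17:34959239-34959488 and Cacybp at chr1:160212893-160213142, all on the minus strand.
Fos: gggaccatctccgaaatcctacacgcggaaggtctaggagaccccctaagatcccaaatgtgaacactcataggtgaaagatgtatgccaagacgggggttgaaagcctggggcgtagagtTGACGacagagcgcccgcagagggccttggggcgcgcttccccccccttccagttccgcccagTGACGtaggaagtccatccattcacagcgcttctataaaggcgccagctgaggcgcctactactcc
Nr4a1: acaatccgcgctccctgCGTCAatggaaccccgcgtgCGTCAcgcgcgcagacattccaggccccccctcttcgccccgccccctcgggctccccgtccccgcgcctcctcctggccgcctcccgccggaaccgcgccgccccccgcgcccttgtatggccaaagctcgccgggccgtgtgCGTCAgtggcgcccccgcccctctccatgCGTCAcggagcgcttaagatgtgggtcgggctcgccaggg
Hspa1a: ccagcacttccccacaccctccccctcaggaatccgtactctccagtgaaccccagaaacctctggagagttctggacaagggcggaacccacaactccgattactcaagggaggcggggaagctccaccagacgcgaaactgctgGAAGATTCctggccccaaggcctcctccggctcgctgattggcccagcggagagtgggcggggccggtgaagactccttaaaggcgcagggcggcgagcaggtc
Hspa1b: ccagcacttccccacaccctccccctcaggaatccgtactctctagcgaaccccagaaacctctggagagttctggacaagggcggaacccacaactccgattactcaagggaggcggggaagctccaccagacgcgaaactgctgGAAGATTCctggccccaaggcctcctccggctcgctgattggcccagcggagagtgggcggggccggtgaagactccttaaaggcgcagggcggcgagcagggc
Cacybp: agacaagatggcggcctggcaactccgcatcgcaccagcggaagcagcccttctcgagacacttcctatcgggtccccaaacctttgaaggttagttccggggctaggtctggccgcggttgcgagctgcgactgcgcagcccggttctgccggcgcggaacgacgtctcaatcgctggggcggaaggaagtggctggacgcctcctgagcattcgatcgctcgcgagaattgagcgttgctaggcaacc

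The core TGACG was found in 2 places upstream of Fos and in 4 upstream of Nr4a1. It was present for 16 of the 31 genes with an entry, including 5 of 8 AP-1 and EGR genes and 3 of 3 NR4A genes, against 1 of 6 heat shock genes (Dnajb1). Over all genes with an entry it was present for 5347 of 27025. Counted by entry, since a gene can have several, 46.2% of the 39 entries of members and 17.8% of all 32851 entries of this length held it. The full element TGACGTCA was present for 3 of 31 genes (Btg2, Dusp1 and Ppp1r15a) and for 478 of all 27025. Of the AP-1 and EGR genes 0 of 8 held this full element, and of the NR4A genes 0 of 3. It was in 7.69% of member entries and 1.55% of all entries. The heat shock element pair was present for 8 of 31 genes, among them 4 of 6 heat shock genes (Dnaja1, Hspa1a, Hspa1b and Hsph1), and for 3932 of all 27025 genes. By entry it was in 23.1% of those of members and 12.8% of all. Ier5l, Jun, Fosl2 and Egr2 also held it, while no match was in the window of Cacybp. The CArG box was present for 3 of 31 genes (Dusp5, Egr2 and Zfp36) and for 439 of all 27025. By entry it was in 15.4% of those of members and 1.47% of all, and 4 of the 6 such member entries belonged to Egr2. Sites beyond the 250 bases were not searched for any motif. The upstream windows of Hspa1a and Hspa1b differed at 3 of 250 bases, and since the genes themselves are near-identical copies, the division of reads between them is uncertain.

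Together the 40 genes made up 2.21% to 2.76% of UMIs in the T cell gate, 3.36% to 3.60% in B cells and 2.79% to 3.33% in NK and ILC. They made up 3.02% to 3.75% in monocytes and macrophages and 2.45% to 3.88% in neutrophils. Levels are given as CPM (UMIs of the gene scaled by all UMIs of that gate and library in the usual CPM unit), in the order Control 1 and 2, then KO 1 and 2. In the test between gates, edgeR compared each gate with the mean of the other 4, with the library as a block and adjusted p below 0.05 as the threshold. In T cells 18 members were higher and 16 lower (34.8% and 23.3% of all genes tested), and in B cells 24 were higher and 11 lower (36.2% and 23.9%). NK and ILC had 13 higher and 12 lower (21.7% and 17.8%), monocytes and macrophages 13 and 15 (34% and 19.5%), and neutrophils 12 and 20 (21.6% and 26.8%).

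**Figure D1:**
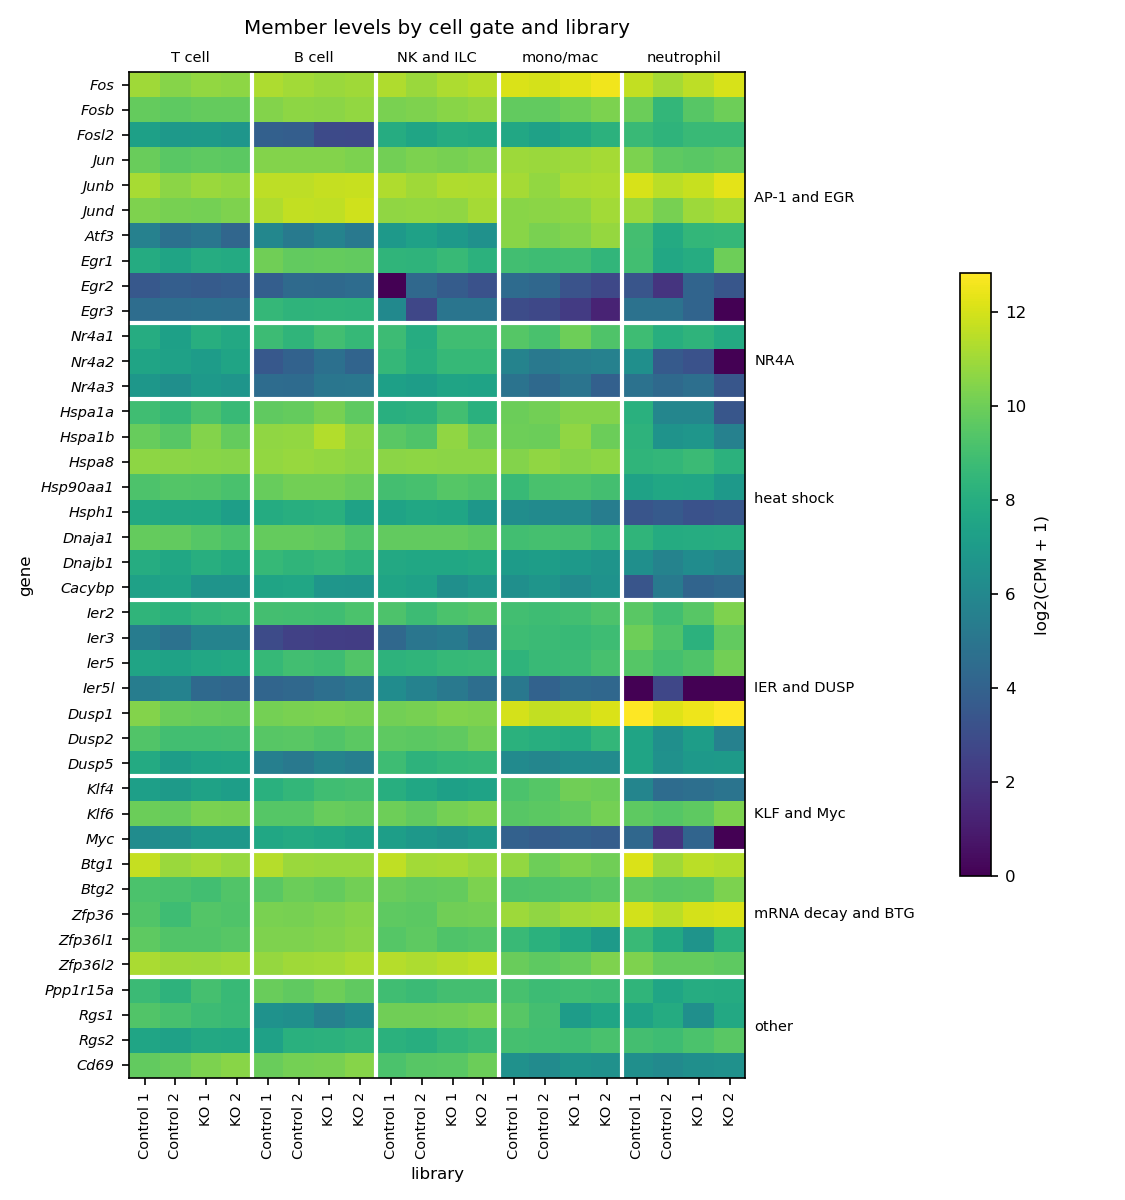
Level of each of the 40 genes (rows, grouped by list) in each library (columns) of the 5 tested gates, as log2(CPM + 1), with colour from low (dark) to high (yellow). Heat shock genes are darkest in neutrophils, where all 8 were lower than the mean of the other gates, and Atf3 and Ier3 are bright in the myeloid gates.

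Among AP-1 and EGR genes, 4 were higher in monocytes and macrophages (34% of all genes tested) and 4 in neutrophils (21.6%). B cells had 7 higher (36.2%) and T cells 0 (34.8%), while 7 were lower in T cells (23.3%). Fos, the founding AP-1 subunit, stood at 4388 and 4112 (Control) and 4825 and 5937 CPM (KO) in monocytes and macrophages. In neutrophils it was 3207 and 2167 (Control) and 2996 and 4305 CPM (KO), in NK and ILC 2499 and 1928 (Control) and 2446 and 2844 CPM (KO), in B cells 2459 and 2138 (Control) and 1881 and 2017 CPM (KO) and in T cells 2061 and 1452 (Control) and 1729 and 1585 CPM (KO). Monocytes and macrophages had the highest mean and T cells the lowest of the tested gates, but the ranges of neighbours in this order overlapped. The edgeR contrast for Fos was a log2 difference of 1.06 ± 0.09 (SE) in monocytes and macrophages and -0.78 ± 0.11 in T cells (adjusted p = 3.39e-11 and 2.25e-07). Jun, the partner of FOS, was 1960 and 1926 (Control) and 1995 and 2223 CPM (KO) in monocytes and macrophages and 954 and 747 (Control) and 806 and 771 CPM (KO) in T cells, where every library was lower. In B cells it was 1391 and 1391 (Control) and 1397 and 1251 CPM (KO), in NK and ILC 1092 and 1272 (Control) and 1171 and 1286 CPM (KO) and in neutrophils 1277 and 813 (Control) and 745 and 827 CPM (KO), ranges that overlapped in sequence. Atf3, a stress-induced factor of the ATF family, was the most skewed to monocytes and macrophages of this list, at 1499 and 1224 (Control) and 1359 and 1776 CPM (KO). T cells had 49.0 and 25.3 (Control) and 31.3 and 17.8 CPM (KO), and the monocyte and macrophage contrast was a log2 difference of 4.09 ± 0.12 from the mean of the other gates (adjusted p = 9.14e-23, edgeR).

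EGR genes leaned to B cells. Egr1, a zinc finger factor induced by ERK signalling, was 1046 and 856 (Control) and 889.8 and 862 CPM (KO) in B cells, 329.5 and 319 (Control) and 393 and 304 CPM (KO) in NK and ILC and 237 and 181 (Control) and 243 and 226 CPM (KO) in T cells. It was 499 and 458 (Control) and 475 and 351 CPM (KO) in monocytes and macrophages and 494 and 205 (Control) and 248 and 1005 CPM (KO) in neutrophils. B cell libraries were all above those of T cells, NK and ILC, and monocytes and macrophages, whereas KO 2 neutrophils reached the B cell range. Its B cell contrast was 1.42 ± 0.15 (adjusted p = 1.43e-09, edgeR). Egr3 was 371 and 325 (Control) and 332 and 328 CPM (KO) in B cells and at most 65.9 CPM in every library of the other tested gates, a log2 difference of 4.36 ± 0.14. In contrast, Fosl2, an AP-1 subunit of the FRA family, was lowest in B cells, at 14.5 and 13.3 (Control) and 6.39 and 6.11 CPM (KO), a log2 difference of -4.58 ± 0.20 from the other gates. Neutrophils held the highest Fosl2, at 419.5 and 328 (Control) and 414 and 414 CPM (KO).

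The 3 NR4A genes divided by lineage. Nr4a1 (Nur77) was 692 and 557 (Control) and 1004 and 634 CPM (KO) in monocytes and macrophages, all above the B cell libraries at 446 and 338 (Control) and 488 and 380.3 CPM (KO). In NK and ILC it was 438 and 248 (Control) and 468 and 474 CPM (KO), in neutrophils 457 and 266 (Control) and 323 and 227 CPM (KO) and in T cells 245 and 155 (Control) and 262 and 216 CPM (KO), with overlap between each pair of neighbours. Its contrast was 1.11 ± 0.11 in monocytes and macrophages and -1.02 ± 0.12 in T cells (adjusted p = 3.04e-10 and 1.55e-08, edgeR). Nr4a2 was instead highest in NK and ILC, at 367 and 265 (Control) and 388 and 387 CPM (KO), followed by T cells at 176 and 160.1 (Control) and 137 and 182 CPM (KO). It was 10.5 and 15.5 (Control) and 25.6 and 16.7 CPM (KO) in B cells, 52.6 and 35.1 (Control) and 44.4 and 49.1 CPM (KO) in monocytes and macrophages and 83.9 and 11.2 (Control) and 8.28 and 0 CPM (KO) in neutrophils. No library of the latter 3 gates reached any T cell or NK and ILC library, and the NK and ILC contrast was 2.76 ± 0.16 (adjusted p = 3.30e-15, edgeR). Nr4a3 was higher in the same 2 gates, with contrasts of 1.90 in NK and ILC and 1.40 in T cells.

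All 8 heat shock genes were higher in B cells (36.2% of all genes tested) and all 8 lower in neutrophils (26.8%). T cells had 7 higher and 0 lower (34.8% and 23.3%). Each gate is set against the mean of the other 4, so low neutrophil levels raise the contrasts of the other gates. Hspa8, the constitutive HSP70 chaperone, was 1720 and 1874 (Control) and 1737 and 1540 CPM (KO) in B cells, 1548 and 1578 (Control) and 1558 and 1523 CPM (KO) in NK and ILC and 1416 and 1663 (Control) and 1434 and 1630 CPM (KO) in monocytes and macrophages. In T cells it was 1591 and 1541 (Control) and 1475 and 1426 CPM (KO), and in neutrophils 336 and 364 (Control) and 422 and 305 CPM (KO). The other 4 gates overlapped one another, and neutrophils lay apart below them, at a log2 difference of -1.86 ± 0.12 (adjusted p = 1.71e-14, edgeR). T cells thus passed as higher for Hspa8, at 0.47 ± 0.09, against a mean that includes neutrophils. Hspa1a, a stress-induced HSP70, was 980.5 and 1112 (Control) and 1407 and 1396 CPM (KO) in monocytes and macrophages, 837 and 881 (Control) and 1154 and 801 CPM (KO) in B cells and 473 and 374 (Control) and 589 and 394 CPM (KO) in T cells. It was 273 and 300.5 (Control) and 486 and 283 CPM (KO) in NK and ILC and 279.7 and 58.9 (Control) and 57.9 and 9.85 CPM (KO) in neutrophils. Its contrast was 1.85 ± 0.16 in monocytes and macrophages, 1.36 ± 0.16 in B cells and -2.51 ± 0.27 in neutrophils (adjusted p = 1.21e-11, 1.01e-08 and 4.31e-09, edgeR). Hsph1, the HSP110 nucleotide exchange factor, showed the widest split of the list, from 1.83 in B cells to -3.58 in neutrophils.

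Dusp1, a phosphatase that switches off MAP kinases, was 7271 and 4637 (Control) and 5867 and 7200 CPM (KO) in neutrophils and 4040 and 3259 (Control) and 3409 and 4378 CPM (KO) in monocytes and macrophages. It was 1097 and 1168 (Control) and 1357 and 1307 CPM (KO) in NK and ILC, 1151 and 1216 (Control) and 1255 and 1182 CPM (KO) in B cells and 1374 and 1002 (Control) and 927 and 898 CPM (KO) in T cells, which overlapped, while the 2 myeloid gates lay apart from each other and above the rest. Ier3, an inhibitor of apoptosis, had the largest neutrophil contrast of the members, 4.39 ± 0.19, and 3.28 ± 0.15 in monocytes and macrophages (adjusted p = 9.68e-19 and 6.23e-18, edgeR). Klf6, a zinc finger factor, was 1001 and 916 (Control) and 1227 and 1184 CPM (KO) in T cells, 1012 and 866 (Control) and 1150 and 1278 CPM (KO) in NK and ILC and 802 and 706 (Control) and 811 and 1271 CPM (KO) in neutrophils. It was 711 and 772 (Control) and 851 and 1126 CPM (KO) in monocytes and macrophages and 703 and 705 (Control) and 919 and 848 CPM (KO) in B cells, and all gates overlapped their neighbours in order. Klf4, a related factor, was higher in monocytes and macrophages by 2.58 ± 0.13.

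Btg1, an antiproliferative partner of the CCR4-NOT deadenylase, was 4391 and 2075 (Control) and 2880 and 2581 CPM (KO) in neutrophils, 3384 and 1894 (Control) and 2159 and 1835 CPM (KO) in T cells and 3073 and 2099 (Control) and 2195 and 1846 CPM (KO) in NK and ILC. In B cells it was 2710 and 1876 (Control) and 1856 and 1864 CPM (KO) and in monocytes and macrophages 1743 and 1036 (Control) and 1243 and 1041 CPM (KO). Control 1 was the highest library in all 5 gates. Zfp36 (tristetraprolin), which destabilizes AU-rich mRNAs, was higher in neutrophils by 2.05 ± 0.08. Cd69, the early activation antigen that retains lymphocytes in tissue, was 943 and 1127 (Control) and 1172 and 1467 CPM (KO) in B cells, 868 and 955 (Control) and 1240 and 1478 CPM (KO) in T cells and 584 and 728 (Control) and 759 and 984 CPM (KO) in NK and ILC. It was 88.0 and 72.7 (Control) and 97.4 and 89.5 CPM (KO) in monocytes and macrophages and 83.9 and 70.1 (Control) and 82.8 and 88.7 CPM (KO) in neutrophils. The lowest lymphoid library had 584 CPM and the highest myeloid one 97.4 CPM.

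The KO libraries were then compared with Control within each gate, with adjusted p below 0.05 by edgeR over all genes of the gate as the threshold. Of the 40 genes, 36 passed in no gate and 4 passed in at least 1, each of them lower in KO: Cacybp, Ier5l, Rgs1 and Zfp36l1. In T cells 0 of 40 were higher and 2 lower (0.191% and 0.364% of all genes tested), and in B cells 0 were higher and 1 lower of 40 (0.0803% and 0.331%). NK and ILC had 0 higher and 1 lower of 39 (0.343% and 0.515%), with Egr2 too low to test. In monocytes and macrophages 0 were higher and 2 lower of 39 (0.275% and 1.37%), Egr3 being too low. In neutrophils 0 of 28 passed in either direction (0% and 0% of all genes), and 12 were too low. There 0 members had an unadjusted p below 0.05 and 0 passed by DESeq2. The median log2 fold change of the members was -0.04, -0.02, 0.05, 0.03 and -0.003 in the 5 gates in that order, against medians of all genes between -0.00748 and -0.000853.

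**Figure D2:**
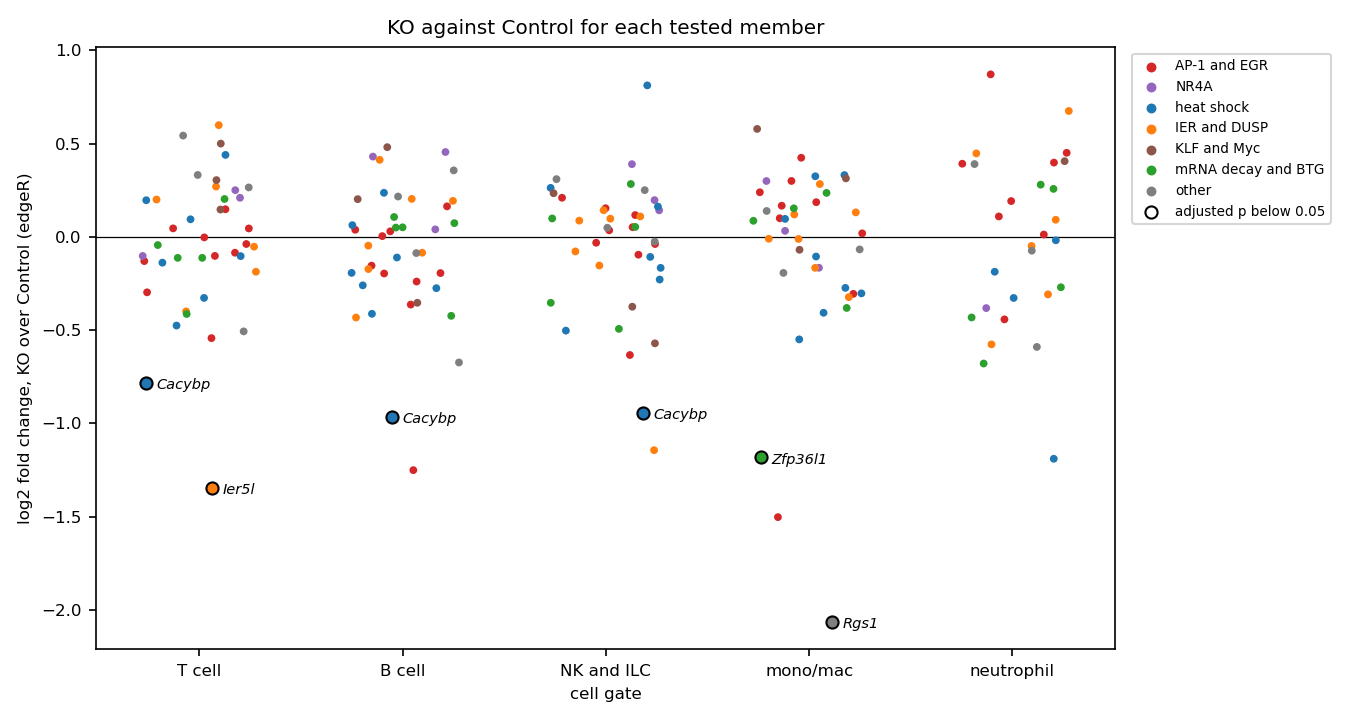
log2 fold change of KO over Control for every tested member (points, coloured by list) in the 5 gates, with outlined points for adjusted p below 0.05 by edgeR. AP-1 and EGR points lie on both sides of 0 in every gate, and the 6 outlined points, at Cacybp in 3 gates and at Ier5l, Zfp36l1 and Rgs1, are all below 0.

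No AP-1 or EGR gene passed in any gate. In T cells their log2 fold changes ran from -0.54 (Atf3) to 0.15 (Egr1), in B cells from -1.25 (Fosl2) to 0.16 (Jund), and in NK and ILC from -0.63 (Atf3) to 0.21 (Egr3). In monocytes and macrophages they ran from -1.50 (Egr2) to 0.42 (Fosl2), and in neutrophils from -0.44 (Jun) to 0.87 (Egr1). For Fos the values given above overlapped between Control and KO in T cells, NK and ILC, and neutrophils. Both KO libraries were below both Control libraries in B cells and above them in monocytes and macrophages, with log2 fold changes of -0.36 ± 0.18 and 0.24 ± 0.18 (adjusted p = 0.459 and 0.685, edgeR). Junb, an AP-1 subunit, was 2246 and 1569 (Control) and 1931 and 1710 CPM (KO) in T cells, 3050 and 3016 (Control) and 3302 and 3459 CPM (KO) in B cells and 2551 and 2067 (Control) and 2517 and 2464 CPM (KO) in NK and ILC. It was 2156 and 1748 (Control) and 2328 and 2433 CPM (KO) in monocytes and macrophages and 4279 and 2876 (Control) and 3442 and 4984 CPM (KO) in neutrophils, with log2 fold changes between -0.08 and 0.19. Jund, the other leading AP-1 gene of B cells, was 2497 and 3189 (Control) and 3142 and 3837 CPM (KO) there and the groups overlapped. Egr1 in neutrophils differed widely within KO: KO 2 had 1005 CPM and KO 1 had 248, and the log2 fold change was 0.87 ± 0.56 (adjusted p = 0.835). Leaving out KO 1, the lower KO library for Egr1, gave 1.57, and leaving out Control 1, the higher Control library, gave 1.44. Each of these values rests on 1 library in that group. Each fit left out the library nearer to the other group, a choice that enlarges the difference. For Egr1 only KO 2 lay above both Control libraries, and KO 1 lay between them.

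No NR4A gene passed either. The 3 genes had positive log2 fold changes in B cells (0.04 to 0.46) and in NK and ILC (0.14 to 0.39), and mixed signs in T cells and in monocytes and macrophages. Nr4a1 was above both Control libraries in both KO libraries of NK and ILC, at 0.39 ± 0.22 (adjusted p = 0.525, edgeR). Without Control 1, the Control library nearer to KO, the value there was 0.79 and rested on 1 Control library. In T cells Nr4a1 was at 0.25 ± 0.19 with all libraries (adjusted p = 0.595, edgeR). Without Control 1, again the Control library nearer to KO, it was 0.54 on 1 Control library. Leaving out the nearer library enlarges the difference in both gates, so these larger values add no evidence for it. Nr4a3 in B cells was 22.4 and 21.4 (Control) and 32.0 and 33.1 CPM (KO), with both KO libraries above both Control libraries and 0.46 ± 0.19 (adjusted p = 0.403, edgeR).

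Among the heat shock genes, Cacybp fell in KO in 3 lymphoid gates. Cacybp (ENSMUSG00000014226) encodes the calcyclin binding protein, an adaptor that links SIAH1 ubiquitin ligase to its targets and has an HSP90 cochaperone-like CS domain. It lies at chromosome 1, 160202367 to 160212875 on the minus strand of GRCm38, with no overlapping gene in GENCODE. In T cells it was 161 and 169.9 (Control) and 99.6 and 97.4 CPM (KO), a log2 fold change of -0.78 ± 0.13 (SE; adjusted p = 0.0428, edgeR, 2 libraries per group). In B cells it was 176 and 189.8 (Control) and 106 and 100.5 CPM (KO), at -0.97 ± 0.13 (adjusted p = 0.00806), and in NK and ILC 179 and 161 (Control) and 83.2 and 107 CPM (KO), at -0.95 ± 0.21 (adjusted p = 0.0264). In all 3 gates both KO libraries lay below both Control libraries, by a wider gap than that between the libraries of either group. In monocytes and macrophages it was 83.4 and 103 (Control) and 71.5 and 92.4 CPM (KO), the groups overlapped, and the log2 fold change was -0.30 ± 0.22 (adjusted p = 0.682). The KO effects in B cells, in NK and ILC, and in monocytes and macrophages differed from that in T cells by -0.12 ± 0.17, -0.10 ± 0.23 and 0.50 ± 0.22, and none of these differences passed (adjusted p = 1, 0.969 and 0.416, edgeR interaction).

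The B cell call held under all 14 alternatives, with adjusted p up to 0.0287. The T cell call was lost at 10% mitochondrial UMIs (0.0618), without KO 1 (0.728) and without KO 2 (0.680), and the NK and ILC call with DESeq2 (0.274) and without KO 1 (0.197), while the log2 fold change stayed between -1.14 and -0.67 in every T cell and NK and ILC alternative. In the NK and ILC gate summed haemoglobin genes were 80.0 and 7.56 CPM in Control and 3788 and 4455 in KO, while the 10 markers of the gate itself summed to 7084 (Control 1), 6416 (Control 2), 10750 (KO 1) and 10980 (KO 2). Of these 10 markers 7 had a log2 fold change above 0 and 3 below it. By edgeR 3 of them passed as higher and 0 as lower (0.343% and 0.515% of all genes), and 4 of 4 haemoglobin genes passed as higher. With haemoglobin and hepatocyte genes left out the Cacybp value there was -0.95 ± 0.21 (adjusted p = 0.0276, edgeR). In B cells summed haemoglobin genes were 1875 and 649 CPM in Control and 30.1 and 312 in KO. The part of these shifts in the Cacybp result was not tested beyond that.

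The other heat shock members gave no call. In T cells their log2 fold changes ran from -0.48 (Dnaja1) to 0.44 (Hspa1b), and the median of the heat shock genes tested was below 0 in each gate, from -0.26 to -0.12. Hspa1b, the second inducible HSP70 gene, was 924 and 724 (Control) and 1380 and 885 CPM (KO) in T cells and 1651 and 1695 (Control) and 2605 and 1686 CPM (KO) in B cells. It was 753 and 619.8 (Control) and 1634 and 1005 CPM (KO) in NK and ILC, 1005 and 994 (Control) and 1683 and 993 CPM (KO) in monocytes and macrophages and 317 and 95.3 (Control) and 108 and 49.2 CPM (KO) in neutrophils. In NK and ILC both KO libraries were above both Control libraries, at 0.81 ± 0.22 (adjusted p = 0.102, edgeR), and in the other gates the groups overlapped. KO 1 was the highest library for Hspa1b in T cells, B cells, NK and ILC, and monocytes and macrophages. Dnaja1, an HSP40 cochaperone, was 893 and 868 (Control) and 698 and 593 CPM (KO) in T cells, lower in both KO libraries at -0.48 ± 0.16 (adjusted p = 0.213), and 336 and 233 (Control) and 248 and 256 CPM (KO) in neutrophils, where the groups overlapped.

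Heat shock genes were unequal between the 2 KO libraries, a comparison of single libraries with no test. All 8 were higher in KO 1 than in KO 2 in T cells and in B cells, with median log2 ratios of 0.26 and 0.38. In NK and ILC and in monocytes and macrophages 6 of 8 were, with medians of 0.18 and 0.26, and over all genes the KO 1 to KO 2 median lay between -0.00368 and -0.00320 in these 4 gates. Between the Control libraries the same genes had medians from -0.12 to -0.02 in those gates. KO 2 had a higher median mitochondrial share (4.56%) and more UMIs per cell than KO 1 (3.80%), and their part in the difference was not tested. AP-1 and EGR genes were higher in Control 1 than in Control 2 for 8 of 10 in T cells, 5 of 10 in B cells, 5 of 9 in NK and ILC, 8 of 9 in monocytes and macrophages and 8 of 8 in neutrophils. All members together also leaned to Control 1 in T cells (28 of 40), monocytes and macrophages (29 of 39) and neutrophils (24 of 28). Over all genes the Control 1 to Control 2 median was -0.002, -0.003 and 0.03 in these gates. T cell members leaned to KO 1 within KO as well (29 of 40), while 18 of 39 did in monocytes and macrophages and 9 of 28 in neutrophils. Between the KO libraries, AP-1 and EGR genes were higher in KO 1 for 8 of 10 in T cells, 5 of 10 in B cells, 5 of 9 in NK and ILC, 2 of 9 in monocytes and macrophages and 1 of 8 in neutrophils. Across all members the median absolute log2 ratio was 0.23 between the Control libraries and 0.15 between the KO libraries in T cells. In B cells these were 0.18 and 0.22, and in neutrophils 0.50 and 0.50.

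**Figure D3:**
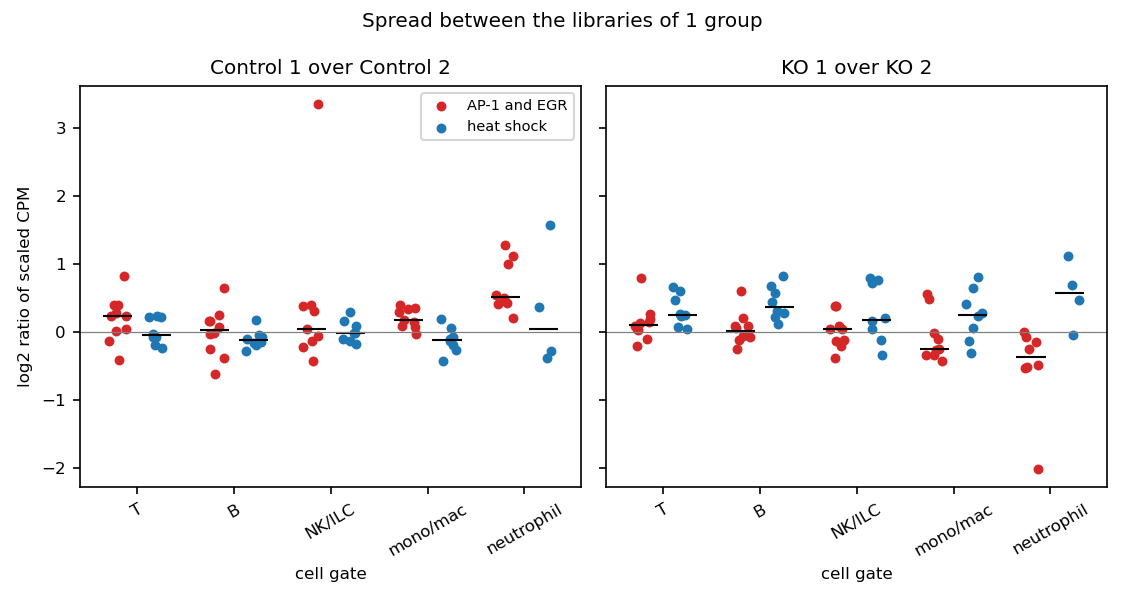
log2 ratio of library 1 over library 2 within Control (left) and within KO (right) for AP-1 and EGR genes and heat shock genes (points; bars are medians) in the 5 gates. In the KO panel all 8 heat shock genes of T cells and of B cells lie above 0, and in the Control panel all 8 tested AP-1 and EGR genes of neutrophils do.

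Of the IER and DUSP genes, Ier5l fell in T cells. Ier5l (ENSMUSG00000089762) is a paralogue of Ier5 at chromosome 2, 30471537 to 30474219, minus strand. It was 42.9 and 49.8 (Control) and 20.2 and 17.7 CPM (KO) in T cells, at -1.34 ± 0.16 (adjusted p = 0.0170, edgeR), with a gap between the groups that exceeded the spread within them. In NK and ILC it was 75.3 and 51.0 (Control) and 35.5 and 23.8 CPM (KO), also lower in both KO libraries, at -1.14 ± 0.33 (adjusted p = 0.137). B cells went the other way, at 17.1 and 19.5 (Control) and 24.3 and 31.2 CPM (KO) and 0.41 ± 0.21 (adjusted p = 0.496), and the B cell effect differed from the T cell effect by 1.81 ± 0.28 (adjusted p = 0.000102, edgeR interaction). The T cell call was lost without KO 1 (0.728) and without KO 2 (0.478), fits in which 0 and 2 genes of any kind passed.

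In T cells with a UMI of Cd8a or Cd8b1 and none of Cd4, a subset chosen after the data were seen, Ier5l was 38.5 and 60.4 (Control) and 18.6 and 21.4 CPM (KO), at -1.42 ± 0.22 (adjusted p = 0.0395, edgeR), and Cacybp was 174 and 179.6 (Control) and 99.6 and 94.8 CPM (KO), at -0.89 ± 0.15 (adjusted p = 0.0487). Both KO libraries lay below both Control libraries for each gene, and these 2 were the members that passed (0.267% of all genes). In T cells with a UMI of Cd4 and none of the CD8 genes, chosen in the same way, Ier5l was 58.8 and 47.7 (Control) and 10.9 and 8.16 CPM (KO), at -2.45 ± 0.38 (adjusted p = 0.00764, edgeR), and it alone of the members passed (1 member; 0.271%). Cacybp there was 208 and 176 (Control) and 95.7 and 97.9 CPM (KO), at -0.99 ± 0.21 (adjusted p = 0.0704). The part of shifts between finer T cell subsets in the falls of Ier5l and Cacybp was not tested.

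The largest fall was that of Rgs1 in monocytes and macrophages. Rgs1 (ENSMUSG00000026358; chromosome 1, 144242296 to 144249242, minus strand) encodes a GTPase activator that dampens chemokine receptor signalling. It was 723 and 513 (Control) and 134 and 183 CPM (KO) there, at -2.06 ± 0.23 (adjusted p = 0.000148, edgeR), and both KO libraries lay far below both Control libraries. In T cells it was 650.1 and 541 (Control) and 445 and 407 CPM (KO), at -0.51 ± 0.15 (adjusted p = 0.170), and in NK and ILC 1054 and 1064 (Control) and 1105 and 1196 CPM (KO), where the fold change after TMM scaling was -0.03 ± 0.18 on the log2 scale. In B cells it was 90.8 and 82.8 (Control) and 49.3 and 68.6 CPM (KO), at -0.67 ± 0.16 (adjusted p = 0.127), and in neutrophils 168 and 233 (Control) and 82.8 and 217 CPM (KO), where the groups overlapped. The effect in monocytes and macrophages differed from that in T cells by -1.54 ± 0.26 (adjusted p = 0.000399, edgeR interaction). The call held under all 14 alternatives, with log2 fold changes from -2.31 to -1.77.

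Zfp36l1 (ENSMUSG00000021127; chromosome 12, 80107754 to 80113013, minus strand), a CCCH zinc finger protein that promotes decay of AU-rich mRNAs, fell in the same gate. It was 414 and 292 (Control) and 203 and 126 CPM (KO), at -1.18 ± 0.25 (adjusted p = 0.0253, edgeR), with both KO libraries below both Control libraries. The annotated gene Gm26669 overlaps it on the opposite strand, and whether the counting used strand is not given in the sources used here. The same holds for Jun, Junb, Jund, Atf3, Hspa1a, Dnaja1, Dusp1, Dusp5, Ppp1r15a, Zfp36 and Zfp36l2, which also overlap a gene on the opposite strand. In T cells it was 809 and 652 (Control) and 647 and 726 CPM (KO) and in B cells 1293 and 1323 (Control) and 1415 and 1548 CPM (KO), with log2 fold changes of -0.11 and 0.05. The relatives Zfp36 and Zfp36l2 had log2 fold changes of 0.15 and 0.24 in monocytes and macrophages and did not pass. The call was lost at 1000 UMIs per cell (0.0535), with doublets kept (0.128), without Control 1 (0.0949) and without KO 2 (0.187).

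Cells of the monocyte and macrophage gate without a UMI of C1qa, C1qb or C1qc, genes of tissue macrophages, made up 70.2% and 82.8% in Control and 96.2% and 96.9% in KO. Such a share tends to fall as UMIs per cell rise. Over the whole gate the median was 1433 and 2100 UMIs per cell in Control and 2444 and 5255 in KO, so the group with the larger share was the deeper one. The part of depth in the share was not tested. In the cells without C1q alone, chosen after the data were seen, Rgs1 was 338 and 269 (Control) and 59.8 and 145 CPM (KO), at -1.69 ± 0.28 (adjusted p = 0.00684), and 1 member passed (0.567% of all genes). Zfp36l1 was 326 and 249 (Control) and 184 and 123 CPM (KO), at -0.99 ± 0.23 (adjusted p = 0.0753, edgeR), still lower in both KO libraries. The gate's own 10 markers summed to 15290 and 16080 CPM in Control and 20170 and 25220 in KO. Yet 8 of the 10 had a log2 fold change below 0 in KO and 2 above it (median -0.24). By edgeR 2 of them passed as lower and 0 as higher (1.37% and 0.275% of all genes). Whether macrophage subtypes other than those with C1q changed in share was not tested.

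**Figure D4:**
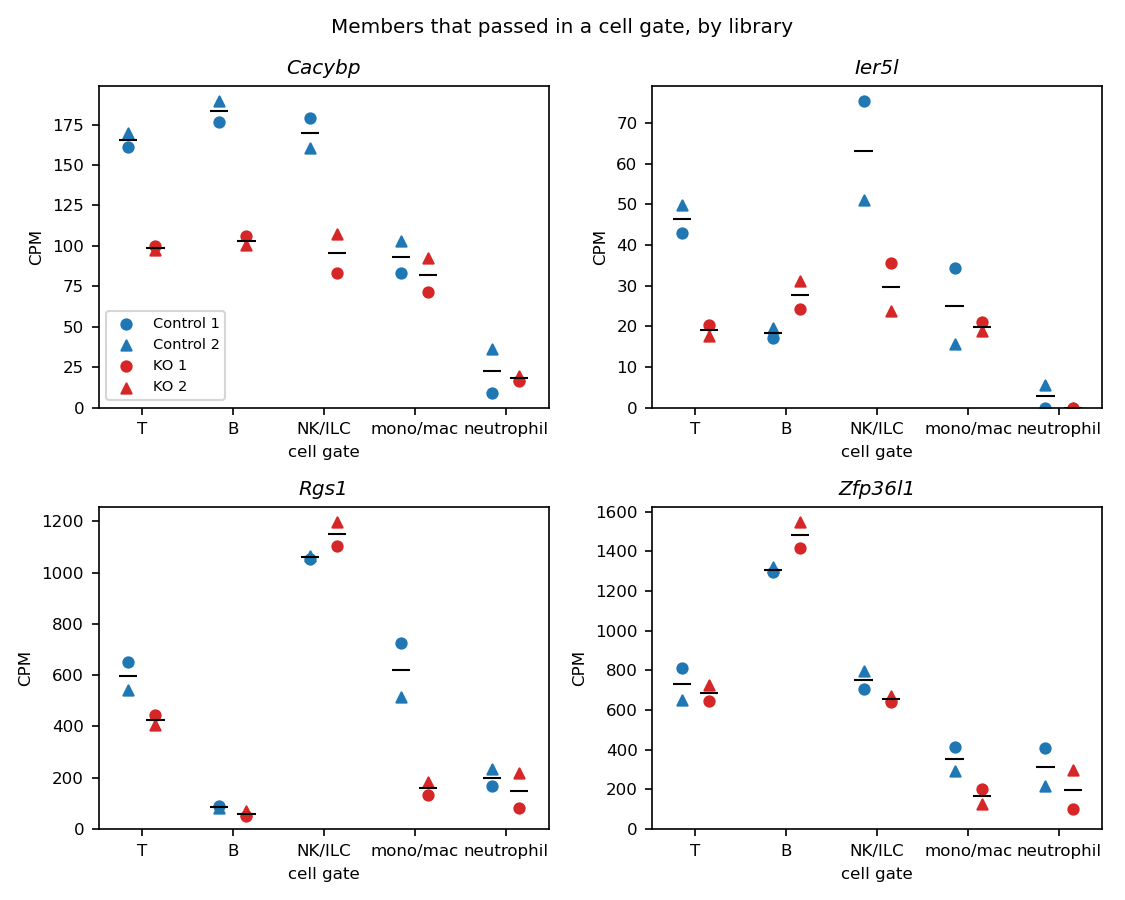
CPM of the 4 genes that passed in a gate, for each library (points; blue Control, red KO; circles library 1, triangles library 2) with group means (bars). Cacybp is lower in both KO libraries in T cells, B cells, and NK and ILC; Rgs1 in monocytes and macrophages is at 723 and 513 CPM in Control and 134 and 183 in KO.

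Some members lay apart between the groups without passing. With 2 libraries per group such separation is common without any difference. Here and above it is a description and not a test. Cd69 in T cells was above both Control libraries in both KO libraries, at 0.54 ± 0.18 (adjusted p = 0.200, edgeR). Myc, the growth-promoting factor, was 75.7 and 81.9 (Control) and 114 and 115 CPM (KO) in T cells, at 0.50 ± 0.13 (adjusted p = 0.135), and 201.3 and 225 (Control) and 201.4 and 166 CPM (KO) in B cells, at -0.35 ± 0.15. The B cell effect on Myc differed from the T cell effect by -0.81 ± 0.17 (adjusted p = 0.0181, edgeR interaction). Klf4 in monocytes and macrophages was 582 and 708 (Control) and 1074 and 985 CPM (KO), at 0.58 ± 0.19 (adjusted p = 0.182).

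Tested against the T cell effect, the KO effect differed for 2 of 40 members in B cells (0.305% of all genes), 0 in NK and ILC (0.231%), 3 in monocytes and macrophages (0.979%) and 2 in neutrophils (0.326%). In NK and ILC 4 members had an unadjusted p below 0.05 in this edgeR interaction. The gates of a library share its digestion and capture, and the library entered this fit as a block.

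In all kept cells together 0 members were higher and 2 lower in KO (1.72% and 8% of all genes tested). Ier3 was 156 and 91.6 CPM in Control and 59.1 and 61.1 in KO, at -0.98 ± 0.21 (adjusted p = 0.0444, edgeR). Ier5l was 39.0 and 41.2 CPM in Control and 22.9 and 24.0 in KO, at -0.74 ± 0.14 (adjusted p = 0.0328). Both were lost without KO 1 or without KO 2. In such sums fewer cells of a type and less RNA per cell cannot be told apart, and the monocyte and macrophage gate, where Ier3 was high, held 10.5% and 6.61% of kept cells in Control and 3.85% and 2.70% in KO, and stromal cells were in Control only.

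Further genes of the same pathways were taken from wider lists. Of 26 other heat shock genes, 0 were higher and 1 lower of 25 tested in T cells (0.191% and 0.364% of all genes), and 0 and 2 of 25 in B cells (0.0803% and 0.331%). None of 22 passed in NK and ILC, 0 of 24 in monocytes and macrophages and 0 of 4 in neutrophils. Most had a fold change below 0, passing or not: 18 of 25 in T cells (median -0.13), 23 of 25 in B cells (median -0.39) and 16 of 22 in NK and ILC (median -0.36). In monocytes and macrophages 16 of 24 were below 0 (median -0.26) and in neutrophils 4 of 4 (median -0.28), while the medians of all genes lay between -0.00748 and -0.000853. Ptges3 (p23), an HSP90 cochaperone, was 294 and 226 (Control) and 155 and 125 CPM (KO) in T cells and 328 and 253 (Control) and 188 and 149.9 CPM (KO) in B cells, lower in both KO libraries of each, at -0.91 ± 0.16 and -0.88 ± 0.16 (adjusted p = 0.0498 and 0.0429, edgeR). Chordc1, another HSP90-binding protein, was 78.9 and 94.8 (Control) and 57.9 and 60.1 CPM (KO) in B cells, at -0.73 ± 0.14 (adjusted p = 0.0484). Of 35 other immediate early genes 0 passed in any of the 5 gates, with 23 of 33 above 0 in T cells, 19 of 32 in B cells, 23 of 30 in NK and ILC, 19 of 30 in monocytes and macrophages and 13 of 25 in neutrophils. Of 16 genes of the ER stress and integrated stress response, 0 were higher and 1 lower of 12 tested in monocytes and macrophages (0.275% and 1.37% of all genes). This was Ddit4, an inhibitor of mTORC1, at 117 and 101 (Control) and 53.0 and 59.2 CPM (KO) and -1.05 ± 0.23 (adjusted p = 0.0253, edgeR). In the other gates 0 passed, of 13 tested in T cells, 13 in B cells, 12 in NK and ILC and 3 in neutrophils. Of 21 genes of the signalling routes upstream 0 passed in any gate. Of these, 21 were tested in T cells, 21 in B cells, 20 in NK and ILC, 20 in monocytes and macrophages and 4 in neutrophils.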

How the data were processed

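Per the labels' protocols and the submitters' processing notes, UMI counts per gene and cell were made with Cell Ranger 3.1.0 on mm10. The authors deposited these counts unnormalized, as 1 matrix per library. Barcodes under 500 UMIs, under 250 genes or over 25% mitochondrial UMIs were dropped. Scrublet called 0 cells in 2 libraries, so the highest scores, 0.8% of cells per 1000 barcodes, were removed from every library (178 to 410 cells). A gate needed 2 of its class's 10 markers and 2 times the count of the next class. Counts were summed per gate and library and tested with edgeR 4.0.16 (quasi-likelihood, TMM, filterByExpr) in R 4.3.3, with Benjamini-Hochberg adjustment over all genes of the gate. DESeq2 1.42.0 was an alternative, and Python 3.11.15 with scanpy 1.11.5 read the matrices. The code was tested on simulated counts. The 40 genes, the marker lists and the wider lists were chosen with earlier results of these data known. Named were all genes that passed, the 2 highest of AP-1 and EGR, NR4A and heat shock genes in each gate, the highest of each list, and Jun, Egr1, Hspa1a and other genes at the extremes of a list, the last chosen after their values were seen. Gene coordinates come from GENCODE M21 (GRCm38) and upstream sequences from RefSeq (GRCm38.p6). Summed depth was 101521 to 9691161 UMIs per tested gate and library. One subset of T cells is not reported here.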

Additional observations from a re-analysis of the deposited data

Results flagged for a closer look

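For 7 pairs of gene and gate the KO effect differed from that of the same gene in T cells by the edgeR interaction test, with the library as a block and adjustment over all 9504 genes. Ier5l in B cells differed by 1.81 ± 0.28 on the log2 scale (adjusted p = 0.000102), being lower in KO T cells and higher in both KO libraries of B cells. Myc in B cells differed by -0.81 ± 0.17 (adjusted p = 0.0181), with neither gate passing on its own. Rgs1 in monocytes and macrophages differed by -1.54 ± 0.26 (adjusted p = 0.000399) and Zfp36l1 by -1.03 ± 0.27 (adjusted p = 0.0467). Fosl2 in monocytes and macrophages differed by 0.75 ± 0.19 (adjusted p = 0.0300), and its effect there was 0.42 against -0.30 in T cells. Hspa1b in neutrophils differed by -1.74 ± 0.41 (adjusted p = 0.0383), on 317 and 95.3 CPM in Control and 108 and 49.2 in KO. Ier3 in neutrophils differed by -1.36 ± 0.27 (adjusted p = 0.00665), its effect being 0.60 ± 0.16 in T cells and -0.58 ± 0.43 in neutrophils. The neutrophil gate held 51 to 150 cells per library.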

How the results depend on the processing

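The fall of Cacybp in B cells and of Rgs1 in monocytes and macrophages passed under all 14 other settings chosen at the start. Across settings, the number of members that passed moved as follows. In T cells, 2 were higher with no filter on low counts and 1 was lower at 10% mitochondrial UMIs. Leaving out 1 library gave 0 to 2 higher and 0 to 6 lower, the 6 without Control 2 and the 0 without KO 1 or KO 2. In B cells, 3 were lower with no filter, 2 with 3 markers in the gate and 2 with Leiden clusters, and leaving out 1 library gave 0 to 2 higher and 1 to 2 lower. In NK and ILC, 0 were lower by DESeq2 and 2 with Leiden clusters; 1 (Hspa1b) was higher with no filter, at 1000 UMIs per cell, with 3 markers and with Leiden clusters. Leaving out 1 library there gave 0 to 2 higher and 0 to 2 lower. In monocytes and macrophages, 1 was lower at 1000 UMIs, with doublets kept and in cells without C1q, and leaving out 1 library gave 1 to 2. In neutrophils, leaving out 1 library gave 0 to 1 higher and 0 to 1 lower. In all kept cells, 3 were higher by DESeq2 and 4 with no filter; leaving out 1 library gave 0 to 10 higher and 0 to 4 lower. In the T cell subsets chosen after the data were seen, 1 was lower in CD4 cells. With the replicate number as a block, 2 were higher in T cells, 1 higher and 3 lower in B cells, 1 higher and 2 lower in NK and ILC, 1 higher in monocytes and macrophages, and 3 higher and 4 lower in all kept cells. With 2 pairs the libraries share only a number, and same-numbered deviations correlated at -0.0524 (neutrophils) to 0.141 (T cells). Where a group was left with 1 library, that library was assumed to vary like the others. Single genes that no longer passed kept their direction in all such cases, 15 under settings chosen at the start and 2 in the subsets added later. Leiden clusters and the 3-marker gate do not apply to all kept cells. The cause of these moves was not tested. With 2 libraries per group and as few as 51 neutrophils, small changes were not detectable at this depth.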
